A study of Homo sapiens with 5 samples.

Results

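Mitochondrial ribosomal proteins are made from nuclear genes, translated in the cytosol, imported into the mitochondrion and assembled there with rRNAs of the mitochondrial genome into a large and a small subunit. The finished mitoribosome translates the mRNAs of the mitochondrial genome, which encode subunits of the respiratory chain and of the ATP synthase. Some of these proteins descend from bacterial ribosomal proteins and others exist only in mitochondria.

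All protein-coding genes whose symbol begins with MRPL or MRPS followed by a number were taken, which gave 77 members among the 13822 genes of the table. The large subunit accounted for 50 of them, MRPS30 and MRPS18A included because their proteins sit in that subunit despite their names, and the small subunit for 26. The remaining member, MRPS36, is now known as a component of the 2-oxoglutarate dehydrogenase complex. By origin, 45 members were of the bacterial type, 30 were specific to mitochondria and 2 were left unclassified. MRPL20-AS1 and MRPL20-DT, both long noncoding RNAs, match the pattern of the symbol and were not counted, and MRPL53 was not analysed here.

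The values came from poly-A+ RNA of RH4, an established human cell line of alveolar rhabdomyosarcoma (ARMS), a tumour with features of skeletal muscle. Cells had received 30 nM of either a control siRNA (si-SCR, n = 3 libraries) or an siRNA for circVAMP3 knock-down (si-circVAMP3, n = 2 libraries). Harvest came 24 h after a change of medium, which was itself made 24 h into the treatment. The methods describe the cultures as biological replicates of this single line. The question put to the members was whether their mRNA levels differed between these conditions. Levels are given as FPKM, fragments normalised for gene length and library size, and fold changes as si-circVAMP3 minus si-SCR on the scale of log2(FPKM + 0.5), which understates changes of low genes. Of the muscle and ARMS markers, DES lay between 248 and 291 FPKM and MYOD1 between 84.3 and 127 FPKM in the 5 libraries. The lowest of these markers were PAX3, between 2.13 and 2.46 FPKM, and FOXO1, between 6.01 and 7.87 FPKM. MYOG, CHRNG, CHRND and FOXO1 were called lower after knock-down, as described further on. Of the markers of other cell types, endothelial PECAM1 reached at most 0.153 FPKM, and PTPRC, EPCAM, ALB, GFAP and HBB were not analysed here.

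circVAMP3 is a circular RNA of 211 nt made of exons 3 and 4 of VAMP3, whose product is a vesicle fusion protein. The siRNA is shown because stretches of it recur in several members described further on. Capitals mark the bases of the strand as listed that pair with the seed, bases 2 to 8, of the opposite strand, and in the opposite strand the seed itself.
si-circVAMP3, strand as listed: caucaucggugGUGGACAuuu
si-circVAMP3, opposite strand without overhang: aUGUCCACcaccgaugaug
The listed strand reads in the direction of the RNA, with 8 bases before and 11 bases after the joint between the end of exon 4 and the start of exon 3. This joined sequence was not found in the linear VAMP3 transcript. The bases in capitals of the listed strand do occur in that transcript, outside its 3'UTR. A circular RNA has no poly-A tail, and the level of circVAMP3 was not analysed here.

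VAMP3 itself was measured at 36.4, 35.4 and 37.4 FPKM in the si-SCR libraries and at 29.4 and 30.2 FPKM after si-circVAMP3. Both knock-down libraries lay below all control libraries. The log2 fold change of the gene was -0.29 (SE 0.04, limma adjusted p = 0.00473).

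All 77 members passed the filter on low values, a mean of at least 1 FPKM over the 5 libraries, and were therefore tested with the other 11017 genes that did. After circVAMP3 knock-down 10 members were lower and 15 were higher at a limma adjusted p under 0.05, and 52 were not called. The 25 called members made up 32.5% of all members, and 3606 of the 11094 genes tested, also 32.5%, were called in either direction. Split by direction, 13.0% of members against 16.7% of all genes were lower, and 19.5% of members against 15.8% of all genes were higher. In this fit the members were thus called about as often as genes in general, in both directions. In bulk RNA a change per cell and a change in the share of cells that express a gene cannot be told apart. On the log2 scale 56 of 77 members (72.7%) lay within 0.2 of no change, against 61.9% of all genes. Just MRPL37 passed both a limma adjusted p under 0.05 and an absolute log2 fold change over 0.58, whereas 3.79% of all genes did. The authors used this pair of limits for the whole transcriptome with edgeR on read counts, so the genes passing here are not their selection. In 22 members both knock-down libraries lay below all control libraries, against 29.1% of all genes, and in 28 members above, against 30.7% of all genes. Without si-SCR replicate 2, 13 members (16.9%) and 2153 genes of all kinds (19.4%) were called. Without the variance trend 23.4% of members and 30.4% of all genes were called. Leaving out either si-circVAMP3 library lowered both shares further, and the share of members was then also below that of all genes.

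**Figure D1:**
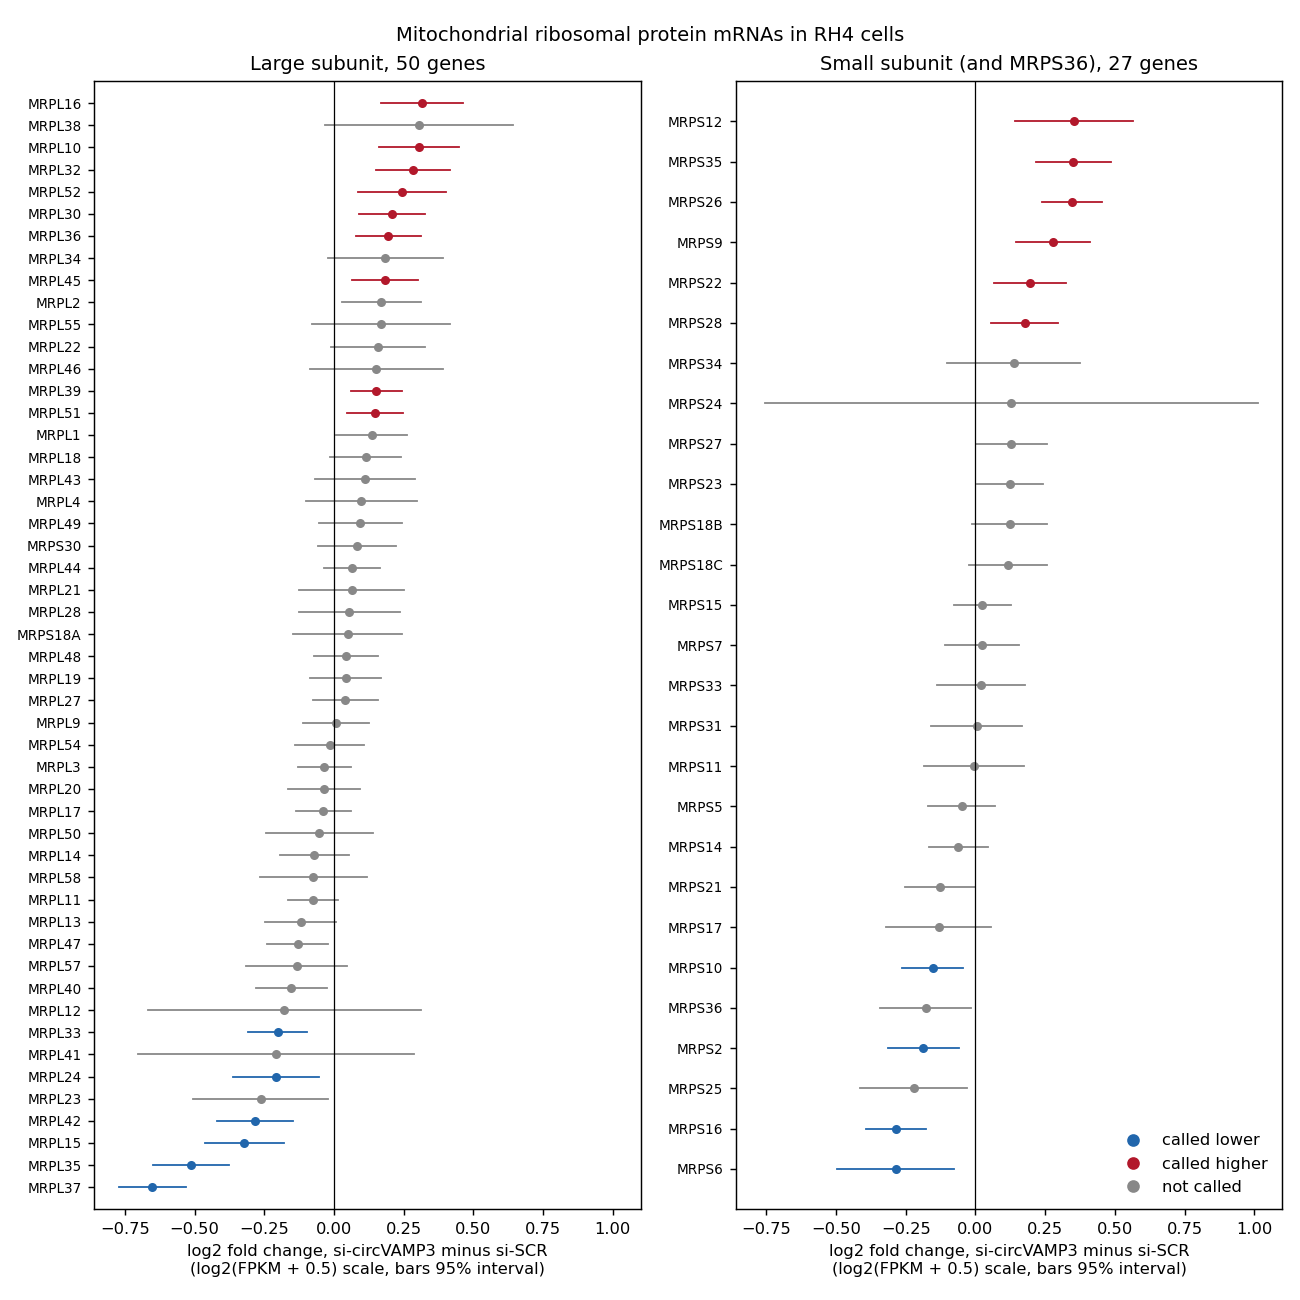
Log2 fold change (si-circVAMP3 minus si-SCR) of every member with its 95% interval, split by subunit and coloured by call. The 10 members called lower and the 15 called higher lie towards the ends of the panels, with uncalled members such as MRPL38 and MRPS25 among them, MRPL37 lies farthest from 0 at -0.65, and MRPS24 has the widest interval.

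Among the members called lower, MRPL37 moved most. MRPL37 (ENSG00000116221, chr1:54184041-54225464, plus strand, GRCh38) encodes a mitochondria-specific protein of the large subunit. It stood at 38.7, 41.3 and 42.0 FPKM in si-SCR and at 25.2 and 26.2 FPKM in si-circVAMP3. The groups were well apart. The log2 fold change was -0.65 (SE 0.05, limma adjusted p = 0.00052), between -0.69 and -0.63 when any single library was left out.

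MRPL35 (ENSG00000132313, chr2:86199355-86213790, plus strand) encodes a large-subunit protein of the bacterial type. Its levels were 20.03, 20.01 and 21.9 FPKM in si-SCR against 14.6 and 14.04 FPKM after knock-down. Again no library of a group reached into the other group. Its log2 fold change was -0.51 (SE 0.06, limma adjusted p = 0.00167). MRPL37 and MRPL35 were the members called lower that kept their call without any single library, the highest adjusted p being 0.011 and 0.0238 respectively.

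MRPL15, a bacterial-type protein of the large subunit, measured 33.7, 35.4 and 38.3 FPKM in si-SCR and 28.5 FPKM in both knock-down libraries. The control libraries differed among themselves more than the knock-down libraries did, and the groups did not overlap (log2 fold change -0.32, SE 0.06, limma adjusted p = 0.00894). MRPL42 (chr12:93467514-93516214, plus strand), a mitochondria-specific large-subunit protein, was a low member at 5.70, 5.39 and 5.73 FPKM in si-SCR and 4.50 and 4.54 FPKM after knock-down. Its log2 fold change was -0.28 (SE 0.06, limma adjusted p = 0.0123). MRPL33 and MRPL24, both of the bacterial type, completed the lower group of the large subunit. MRPL33 stood at 15.4, 15.1 and 15.6 FPKM against 13.5 and 13.1 FPKM (log2 fold change -0.20, SE 0.04, limma adjusted p = 0.0161). For MRPL24 the values were 24.3, 26.3 and 27.8 FPKM against 23.2 and 21.8 FPKM (log2 fold change -0.21, SE 0.06, limma adjusted p = 0.0486). The lowest control library of MRPL24 lay close to the higher knock-down library, and its call was lost without si-SCR replicate 2 or 3 or either si-circVAMP3 library, with adjusted p up to 0.249, and under median centring (0.0741), without the filter on low values (0.0519), without the variance trend (0.0726) and with voom weights on recovered fragments (0.0508; an alternative chosen after seeing the data). MRPL15, MRPL42 and MRPL33 lost theirs without either si-circVAMP3 library, with adjusted p up to 0.0663, 0.0831 and 0.109.

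In the small subunit the lower group held 4 proteins of the bacterial type. MRPS16 (ENSG00000182180, chr10:73248843-73252693, minus strand), a gene in which recessive mutations cause a mitochondrial translation defect, stood at 35.3, 37.8 and 36.4 FPKM in si-SCR and at 29.5 and 30.3 FPKM in si-circVAMP3. Its control libraries were close together and all above the knock-down libraries (log2 fold change -0.28, SE 0.05, limma adjusted p = 0.00553; 0.0532 without si-circVAMP3 replicate 1). MRPS6 was measured at 5.15, 5.94 and 6.28 FPKM against 4.50 and 4.79 FPKM (log2 fold change -0.29, SE 0.09, limma adjusted p = 0.0479). MRPS2 was measured at 35.1, 36.6 and 32.9 FPKM against 30.3 and 30.7 FPKM (log2 fold change -0.19, SE 0.05, limma adjusted p = 0.0391). MRPS10 was measured at 49.3, 47.7 and 50.9 FPKM against 43.2 and 45.3 FPKM (log2 fold change -0.15, SE 0.05, limma adjusted p = 0.0441). These last proteins sat near the threshold. Leaving out a single library ended the call of MRPS6 in every case but si-SCR replicate 1, that of MRPS2 in every case but si-SCR replicate 3, and that of MRPS10 in every case, with adjusted p up to 0.227, 0.179 and 0.24. Median centring ended the calls of MRPS6 (adjusted p = 0.0559) and MRPS10 (0.0701), and quantile normalization that of MRPS6 (0.0692). MRPS6 (adjusted p = 0.0543), MRPS2 (0.0659) and MRPS10 (0.0818) were also not called without the variance trend, nor MRPS6 without the filter on low values (0.0562) or MRPS10 with voom weights (0.0511).

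The members called higher were led by small-subunit proteins. MRPS26 (ENSG00000125901, chr20:3046052-3048250, plus strand), specific to mitochondria, stood at 21.4, 21.1 and 20.3 FPKM in si-SCR and at 27.2 and 26.3 FPKM in si-circVAMP3. All control libraries lay below both knock-down libraries. The log2 fold change was 0.35 (SE 0.04, limma adjusted p = 0.00283), and of the members called higher it was the gene whose call was kept without any single library, at an adjusted p of at most 0.0354.

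MRPS35 (ENSG00000061794, chr12:27710822-27756295, plus strand), another mitochondria-specific protein, was among the more abundant members, at 43.4, 43.7 and 47.7 FPKM in si-SCR and 55.8 and 59.1 FPKM after knock-down. The groups were apart, with a log2 fold change of 0.35 (SE 0.06, limma adjusted p = 0.00559; 0.0557 without si-circVAMP3 replicate 2). MRPS12 (ENSG00000128626, chr19:38930944-38933168, plus strand) encodes a protein of the decoding centre, the place in the small subunit where codon and tRNA are matched. Its values spread widely among the controls, at 20.2, 18.4 and 16.4 FPKM, against 22.6 and 24.4 FPKM after knock-down. The groups did not overlap and the log2 fold change was by a narrow margin the largest increase of a member, 0.35 (SE 0.09, limma adjusted p = 0.0248), and the call was lost without si-SCR replicate 2 (adjusted p = 0.0702), si-circVAMP3 replicate 1 (0.083) or si-circVAMP3 replicate 2 (0.154). MRPS9, of the bacterial type, rose from 38.3, 39.3 and 42.8 FPKM to 48.1 and 49.3 FPKM (log2 fold change 0.28, SE 0.06, limma adjusted p = 0.0118; up to 0.0875 without either si-circVAMP3 library). MRPS22, in which mutations cause mitochondrial disease, and MRPS28 completed the higher group of the small subunit. MRPS22 was at 15.5, 14.6 and 15.5 FPKM against 16.9 and 18.1 FPKM (log2 fold change 0.20, SE 0.05, limma adjusted p = 0.0329). MRPS28 was at 8.48, 8.70 and 8.76 FPKM against 9.59 and 10.1 FPKM (log2 fold change 0.18, SE 0.05, limma adjusted p = 0.0381). Both were apart by little, and both lost their call in every fit without a library but that without si-SCR replicate 3, with adjusted p up to 0.204 and 0.216. MRPS28 was also not called with voom weights (adjusted p = 0.091).

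In the large subunit 9 members were called higher. MRPL16 (ENSG00000166902, chr11:59806140-59810778, minus strand), of the bacterial type, stood at 27.2, 28.2 and 30.9 FPKM in si-SCR and 35.2 and 36.5 FPKM after knock-down (log2 fold change 0.32, SE 0.06, limma adjusted p = 0.011). MRPL10, which anchors the stalk that recruits translation factors, stood at 17.3, 19.6 and 18.8 FPKM against 22.9 and 23.1 FPKM (log2 fold change 0.30, SE 0.06, limma adjusted p = 0.0113). MRPL32, a protein matured by a mitochondrial protease before it enters the ribosome, stood at 17.8, 16.2 and 16.4 FPKM against 20.8 and 20.3 FPKM (log2 fold change 0.28, SE 0.05, limma adjusted p = 0.0107). In each of these genes the groups were clearly separated. They lost their call without either si-circVAMP3 library, with adjusted p up to 0.0841, 0.0805 and 0.0821, and kept it without any si-SCR library.

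The other members of the large subunit called higher were MRPL52, MRPL30, MRPL36, MRPL45, MRPL39 and MRPL51. MRPL52 was at 15.8, 15.2 and 15.0 FPKM in si-SCR and at 17.0 and 19.5 FPKM after knock-down (log2 fold change 0.24, SE 0.07, limma adjusted p = 0.033). MRPL30 was at 25.0, 24.7 and 26.8 FPKM against 29.6 and 29.4 FPKM (log2 fold change 0.21, SE 0.05, limma adjusted p = 0.0204). The knock-down libraries of MRPL52 differed more from each other than its control libraries did, and those of MRPL30 were nearly equal. MRPL36 was at 26.8, 25.3 and 27.3 FPKM against 29.9 and 30.8 FPKM (log2 fold change 0.19, SE 0.05, limma adjusted p = 0.0247). MRPL45, which lies by the exit of the nascent chain and helps to hold the ribosome at the inner membrane, was at 33.8, 33.8 and 36.3 FPKM against 40.2 and 38.5 FPKM (log2 fold change 0.18, SE 0.05, limma adjusted p = 0.032). MRPL39 had nearly equal control libraries, 47.7, 47.4 and 47.7 FPKM, against 53.8 and 52.0 FPKM (log2 fold change 0.15, SE 0.04, limma adjusted p = 0.025). In all of these genes the groups were apart, with smaller log2 fold changes than in MRPL16, MRPL10 and MRPL32. MRPL52 (log2 fold change 0.15 without si-circVAMP3 replicate 2) and MRPL36 lost their call in 3 of the 5 fits without a library, and MRPL30, MRPL45 and MRPL39 in 4, with the highest adjusted p of these genes between 0.115 for MRPL30 and 0.191 for MRPL52. MRPL39 was also not called under quantile normalization (adjusted p = 0.0523), without the variance trend (0.0585) or with voom weights (0.0521), and MRPL45 not without the variance trend (0.0585).

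**Figure D2:**
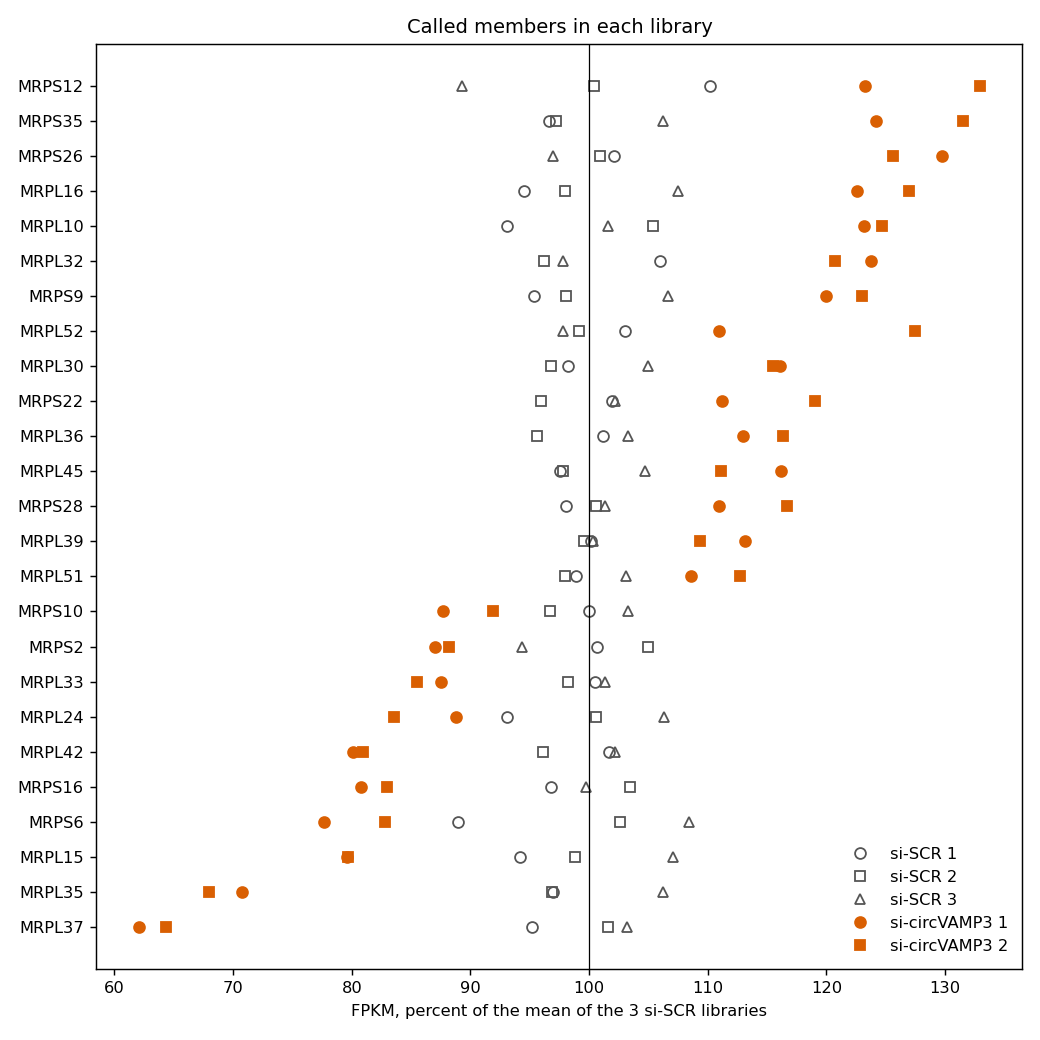
FPKM of the 25 called members in each of the 5 libraries, as a percentage of the mean of the 3 si-SCR libraries. Filled symbols (si-circVAMP3) lie outside the range of the open symbols (si-SCR) in every gene shown, and the distance is largest for MRPL37.

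By level, the members covered a 67.6-fold range of mean FPKM, with a median of 21.9 FPKM against 7.03 FPKM for all genes tested. MRPL51, a mitochondria-specific large-subunit protein, was the most abundant, at 115, 114 and 120.1 FPKM in si-SCR and 126 and 131 FPKM after knock-down. It was called higher with a small log2 fold change of 0.15 (SE 0.04, limma adjusted p = 0.0394), and lost the call in 4 of 5 fits without a library, with adjusted p up to 0.222, and under quantile normalization (log2 fold change 0.09, adjusted p = 0.0965) or without the variance trend (adjusted p = 0.0825). MRPS18B followed at 71.3, 79.8 and 77.4 FPKM against 84.4 and 81.3 FPKM (log2 fold change 0.12, SE 0.06, limma adjusted p = 0.141). MRPL18 was at 68.9, 73.5 and 77.0 FPKM against 79.1 and 79.0 FPKM (log2 fold change 0.11, SE 0.05, limma adjusted p = 0.148; 0.0408 without si-SCR replicate 3). Without si-SCR replicate 1 the log2 fold change was 0.08 for MRPS18B and 0.07 for MRPL18, and under quantile normalization 0.08 and 0.07. Both genes had knock-down libraries above all control libraries and were not called. MRPL47 was at 79.1, 76.0 and 82.1 FPKM against 73.2 and 71.1 FPKM (log2 fold change -0.13, SE 0.05, limma adjusted p = 0.0703; 0.0283 under quantile normalization). MRPL14 was at 71.1, 70.7 and 77.7 FPKM against 69.8 and 69.4 FPKM (log2 fold change -0.07, SE 0.05, limma adjusted p = 0.337), and its log2 fold change was -0.03 without si-SCR replicate 3. Among the 5 most abundant members, which encode proteins of both subunits, MRPL51 was thus the called gene.

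The lowest members were MRPS24, MRPL38 and MRPL46. MRPS24 was at 2.96, 1.46 and 0.876 FPKM in si-SCR and 1.41 and 2.28 FPKM after knock-down. Its control libraries spread over more than the whole range of the knock-down libraries, and the log2 fold change of 0.13 had an SE of 0.37 (limma adjusted p = 0.816) and a changed sign without si-SCR replicate 3 (-0.18) or si-circVAMP3 replicate 2 (-0.14). MRPL38 was at 1.97, 1.64 and 1.26 FPKM against 2.05 and 2.14 FPKM (log2 fold change 0.30, SE 0.14, limma adjusted p = 0.145; 0.0478 without si-SCR replicate 1). MRPL46 was at 2.38, 2.04 and 1.86 FPKM against 2.28 and 2.47 FPKM (log2 fold change 0.15, SE 0.10, limma adjusted p = 0.288). Without si-SCR replicate 3 the log2 fold change of MRPL38 was 0.18 and that of MRPL46 0.09, and without si-SCR replicate 1 that of MRPL46 was 0.23. The exons of MRPS24 overlap those of a gene on the same strand over 23.2% of their length, and those of MRPL38 over 41.1%, and fragments that fit both genes are not counted by the tool that was used. At the recovered depths MRPS24 rested on 57 to 206 fragments a library, whereas MRPL37 rested on 1192 to 2669. The cause of the spread of MRPS24 was not tested.

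**Figure D3:**
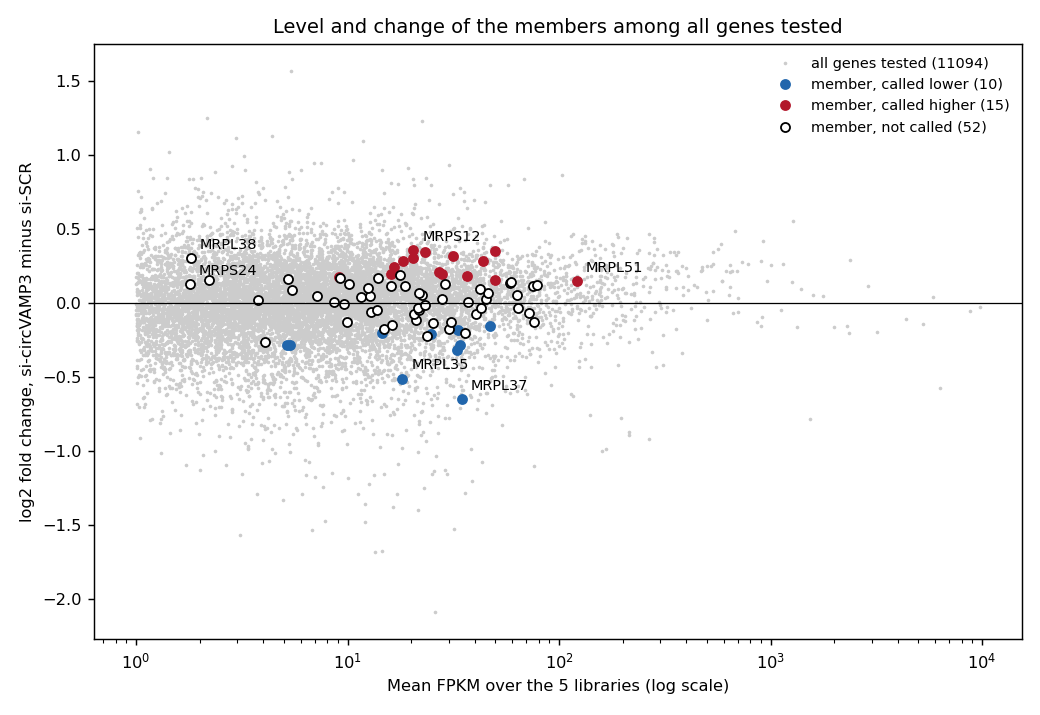
Mean FPKM over the 5 libraries (log axis) against the log2 fold change, with all 11094 genes tested in grey and the 77 members on top. The members lie between 1.80 and 121 FPKM and within -0.65 and 0.35 on the axis of change, while other genes reach -2.09 and 1.57.

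The medians of both subunits lay close to no change and their order depended on the library left out. A difference between the subunits was not tested. The median log2 fold change was 0.05 over the 50 large-subunit members and 0.02 over the 26 small-subunit members, beside 0.01 over all genes tested. The large-subunit median was 0.02 without si-SCR replicate 1 and 0.03 without si-circVAMP3 replicate 2, and the small-subunit median was 0.04 without si-SCR replicate 2, 0.01 without si-circVAMP3 replicate 1 and 0.06 without si-circVAMP3 replicate 2. Of the large subunit 6 members were lower and 9 higher, and of the small subunit 4 were lower and 6 higher. These are 12% and 18% of the large subunit and 15.4% and 23.1% of the small, beside 16.7% and 15.8% of all genes. The numbers lower and higher in the large subunit were 5 and 3 without si-SCR replicate 2, 2 and 1 without si-circVAMP3 replicate 1, and 2 and 0 without si-circVAMP3 replicate 2. In the small subunit they were 2 and 6 after median centring, 4 and 4 without si-SCR replicate 1, 1 and 3 without si-SCR replicate 2, 2 and 8 without si-SCR replicate 3, 0 and 2 without si-circVAMP3 replicate 1, and 1 and 1 without si-circVAMP3 replicate 2. Summed over the large subunit, the levels came to 1441, 1450.3 and 1482 FPKM in si-SCR and to 1451 and 1487 FPKM after knock-down, so the groups overlapped. Summed over the small subunit they came to 647, 657 and 660.4 FPKM in si-SCR and to 675 and 691 FPKM after knock-down, both above all control libraries. The ratio of the large to the small sum was 2.23, 2.21 and 2.24 in si-SCR and 2.15 in both knock-down libraries. A difference in these sums or in their ratio was not tested. Over all members the sum was 2120.1, 2136 and 2176 FPKM in si-SCR and 2154 and 2207 FPKM after knock-down, between 0.753% and 0.782% of all FPKM in a library.

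Sorted by origin, the members of the bacterial type had a median log2 fold change of 0.01, with 8 lower and 8 higher of 45. The mitochondria-specific members had a median of 0.09, with 2 lower and 7 higher of 30. The numbers lower and higher were 3 and 3 of these without si-SCR replicate 1, 3 and 2 without si-SCR replicate 2, 1 and 3 without si-circVAMP3 replicate 1, and 1 and 1 without si-circVAMP3 replicate 2, and the median was 0.06 without si-SCR replicate 3. For the bacterial type they were 5 and 8 after median centring, 4 and 4 without si-SCR replicate 2, 1 and 0 without si-circVAMP3 replicate 1, and 2 and 0 without si-circVAMP3 replicate 2, and the median, close to 0, was below 0 without si-SCR replicate 3 or either si-circVAMP3 library. The lower members of the mitochondria-specific kind were MRPL37 and MRPL42. In the small subunit none of the 10 mitochondria-specific proteins was called lower and 3 were called higher, MRPS26, MRPS35 and MRPS22. Of the 16 proteins of the bacterial type in that subunit, 4 were called lower and 3 higher. Of all genes tested 16.7% were lower and 15.8% higher. The shares were 17.8% and 17.8% for the bacterial type and 6.67% and 23.3% for the mitochondria-specific members. Under quantile normalization the medians were -0.01 and 0.07, and a difference between the kinds of origin was not tested.

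The letters GTGGACA, which pair with the seed of the siRNA's opposite strand, occurred in the main transcript of 12 of the 77 members, in the 3'UTR of 4 and elsewhere in 8. The sites of 4 called members are shown, from the GENCODE transcript and in its direction, with the matching letters in capitals.
MRPL37, coding region: actgcccggtcatcGTGGACAac
MRPS2, coding region: ccacagtgggcatcGTGGACAcc
MRPL42, coding region: gctaccacccttctGTGGACAtt
MRPL42, 3'UTR: tatttttttttactGTGGACAgt
MRPS12, 3'UTR: gtgtggctgtggcaGTGGACAtc
MRPL15 has the letters in its transcript too. Of the 12 members with the letters, 4 were called lower (MRPL37, MRPL15, MRPL42 and MRPS2) and 1 higher (MRPS12), and their median log2 fold change was -0.12. Of the 65 members without them, 6 were called lower and 14 higher, and the median was 0.06. The same letters stood in 30.8% of the 10161 protein-coding genes tested. Of the genes with the letters 28.8% were called lower and 9.42% higher, and of those without them 11.5% were lower and 19.99% higher. Of the 1144 genes with the letters in the 3'UTR, 35.5% were lower and 8.04% higher. Members with the letters in the 3'UTR fell into each class of call, with MRPL42 lower, MRPS12 higher, and MRPS11 and MRPS25 not called. The part of these letters in the results was not tested.

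The letters CGATGAT, which pair with the seed of the listed strand, occurred in MRPL35 (lower) and MRPS22 (higher) alone among the members.
MRPL35, 3'UTR: tacctagtttctgcCGATGATtt
MRPS22, coding region: cagagagatttaatCGATGATgc
Among all protein-coding genes tested 6.82% held these letters, of which 18.2% were lower and 15.6% higher, beside 16.8% and 16.8% of those without them. Which strand of the siRNA was active was not tested.

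**Figure D4:**
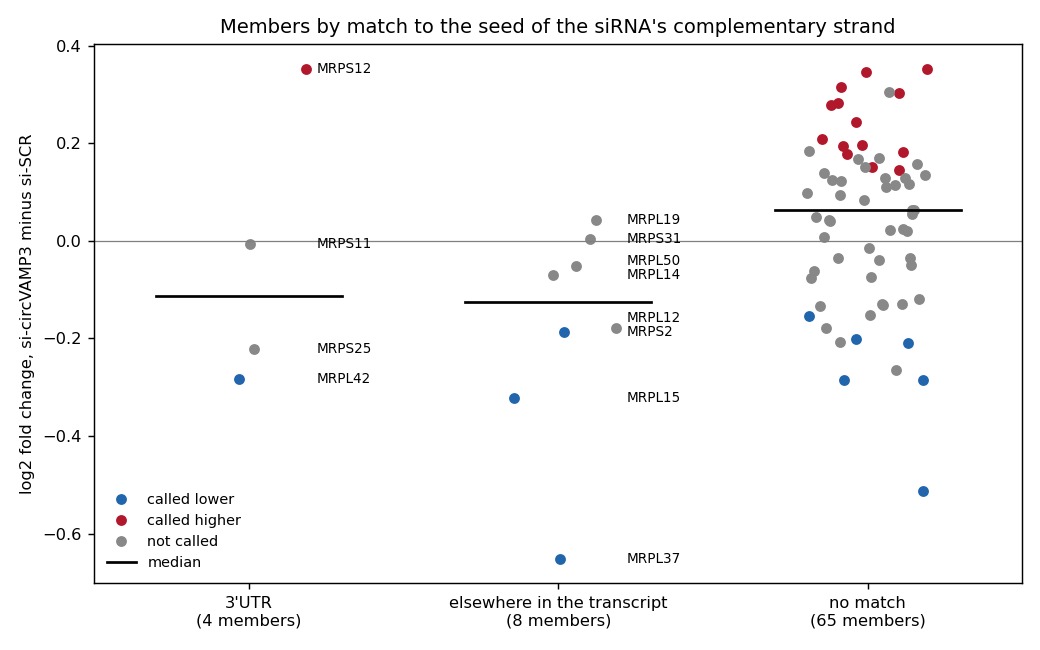
Log2 fold change of the 77 members by the place of the letters that pair with the seed of the siRNA's opposite strand: 3'UTR (4 members), elsewhere in the transcript (8) or no match (65). Bars mark medians at -0.11, -0.12 and 0.06, and points of each class lie on both sides of 0.

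A promoter in the RefSeq collection (GRCh38.p14, 250 bases before to 50 bases after the start) was found for 68 members. On either strand, CCGGAAG, letters bound by ETS factors such as GABPA, stood in 28 of them (41.2%), beside 10.7% of 27305 promoters. These 27305 promoters were not limited to the genes tested here, whereas all members passed the filter on low values. AAGATGGC, letters bound by YY1, stood in 20 (29.4%), beside 3.03% of all promoters. These motifs can overlap, since one ends and the other begins with AAG, and the joined form CCGGAAGATGGC was found in 0 of the 68. The palindrome of 10 bases bound by NRF1 stood in 1 (1.47% beside 1.36%) and the E-box CACGTG in 6 (8.82% beside 7.43%). By call, the ETS letters were found in 3 of 8 lower, 7 of 13 higher and 18 of 47 uncalled members with a promoter. The YY1 letters were found in 2 of 8, 6 of 13 and 12 of 47. The members thus shared promoter letters across all classes of call.

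Among the control libraries, si-SCR replicate 3 differed from the others in several members. MRPL12, a stalk protein, was at 19.9, 15.9 and 11.6 FPKM in si-SCR, and at 12.4 and 14.8 FPKM in si-circVAMP3. MRPL41 was at 44.3, 41.5 and 28.5 FPKM in si-SCR, and at 27.5 and 37.9 FPKM in si-circVAMP3. In both genes the libraries of a group differed more than the groups did, and neither was called. Over the 77 members the difference between si-SCR replicate 3 and the mean of the other si-SCR libraries went with the GC content of the transcript (Spearman correlation -0.47 across 77 genes, as a description, since genes of a library are not independent; -0.48 across 11070 genes). For si-circVAMP3 replicate 1 minus replicate 2 the correlation was -0.34 over the members and -0.07 over the 11070 genes. The 26 members of highest GC content, from 51.9% to 66.7%, had a median difference of -0.14 on the log2 scale, the 25 in the middle one of 0.09, and the 26 of lowest GC content one of 0.07. The log2 fold change between the conditions had a correlation with GC content of 0.09 over the members and 0.15 over all genes. Without si-SCR replicate 3, 9 members were lower and 18 higher, 22 of them among the 25 called with all libraries. These calls made up 35.1% of members, and 35.5% of all genes were called in the same fit.

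**Figure D5:**
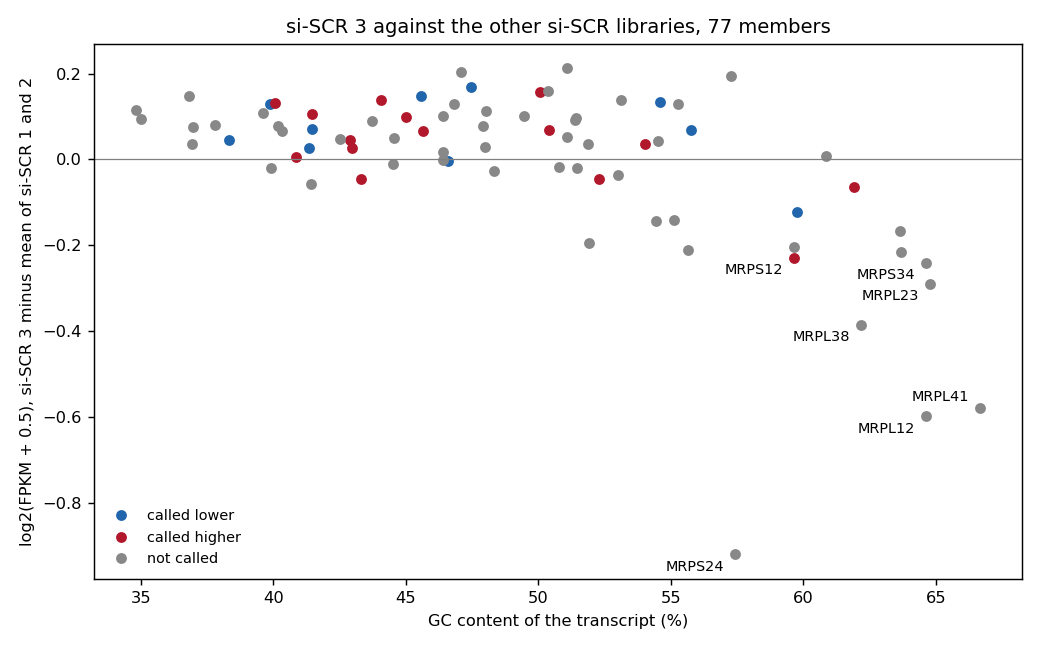
GC content of the main transcript of each member (percent) against the difference in log2(FPKM + 0.5) between si-SCR replicate 3 and the mean of si-SCR replicates 1 and 2. Members above about 60% GC lie mostly below 0, and the lowest points of all are MRPS24 (57.4% GC), MRPL12 and MRPL41.

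Proteins of the mitoribosome that carry other names were read alongside, with OXA1L, which is not part of the ribosome. Of DAP3, PTCD3, AURKAIP1, CHCHD1 and GADD45GIP1, DAP3 was called lower and AURKAIP1 higher, and OXA1L was called higher. DAP3, a GTP-binding protein of the small subunit, was at 22.6, 22.8 and 24.5 FPKM in si-SCR and 19.5 and 19.4 FPKM after knock-down (log2 fold change -0.25, SE 0.05, limma adjusted p = 0.0118; up to 0.0807 without either si-circVAMP3 library). AURKAIP1, also of the small subunit, was at 60.7, 60.2 and 51.9 FPKM against 66.5 and 77.0 FPKM. Its log2 fold change was 0.31 (SE 0.09, limma adjusted p = 0.0381), or 0.21 without si-circVAMP3 replicate 2. The call of AURKAIP1 was lost without si-SCR replicate 2 (limma adjusted p = 0.0684) or either si-circVAMP3 library. OXA1L, the insertase that receives nascent chains at the inner membrane, had a log2 fold change of 0.20 (SE 0.06, limma adjusted p = 0.0464; up to 0.198 without a library, and not called under either scaling alternative).

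The rRNAs that these proteins bind were both lower. MT-RNR1, the rRNA of the small subunit, was at 1718, 1764 and 2056 FPKM in si-SCR and at 1087 and 1046 FPKM after knock-down. MT-RNR2, the rRNA of the large subunit, was at 6928, 7005 and 7839 FPKM against 5036 and 4673 FPKM. Their groups did not overlap, with log2 fold changes of -0.79 (SE 0.08, limma adjusted p = 0.0014) and -0.58 (SE 0.07, limma adjusted p = 0.00276). Both kept their call whichever library was left out, and under quantile normalization the log2 fold change of MT-RNR2 was -0.37. The libraries were prepared from poly-A+ RNA, in which rRNA with a short tail is kept in part, and the level of total rRNA was not measured. Of the 13 mRNAs of the mitochondrial genome, MT-ATP8 was called lower (log2 fold change -0.20, SE 0.05, limma adjusted p = 0.0241; up to 0.184 without a library, and 0.0779 under quantile normalization) and none higher. Over these 15 RNAs the median log2 fold change was -0.14, or -0.04 after quantile normalization, under which 4 were lower and 2 higher. The median was -0.09 without si-SCR replicate 2 and -0.08 without si-circVAMP3 replicate 2.

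Among 27 factors of mitoribosome assembly that were tested, 2 were lower and 2 higher. Their median log2 fold change was 0.00, of either sign depending on the scaling or the library left out. The numbers lower and higher were 2 and 4 after median centring, 2 and 1 without si-SCR replicate 1, 3 and 4 without si-SCR replicate 3 (median 0.04), and 1 and 1 without si-SCR replicate 2, si-circVAMP3 replicate 1 or si-circVAMP3 replicate 2. NGRN, which joins a module that handles the large-subunit rRNA, had a log2 fold change of -0.30 (SE 0.05, limma adjusted p = 0.00503), and C1QBP one of -0.22 (SE 0.06, limma adjusted p = 0.0252). The rRNA methyltransferase MRM3 had a log2 fold change of 0.28 (SE 0.06, limma adjusted p = 0.0136), and the pseudouridine synthase TRUB2 one of 0.27 (SE 0.07, limma adjusted p = 0.0308). NGRN kept its call whichever library was left out, and the others did not, with adjusted p up to 0.132 for C1QBP, 0.107 for MRM3 and 0.173 for TRUB2, whose log2 fold change was 0.16 without si-circVAMP3 replicate 1.

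Of 16 translation factors tested 2 were lower and 1 higher (median -0.07), or 2 and 3 without si-SCR replicate 3 (median -0.04). MTIF3, an initiation factor, was at 21.7, 21.4 and 22.1 FPKM in si-SCR and 15.9 and 14.7 FPKM after knock-down (log2 fold change -0.49, SE 0.05, limma adjusted p = 0.00121). TUFM, the elongation factor that delivers tRNA, was at 149, 155 and 153 FPKM against 126 and 125 FPKM (log2 fold change -0.28, SE 0.04, limma adjusted p = 0.00331). LRPPRC, which stabilises mitochondrial mRNAs, was at 30.2, 30.0 and 31.3 FPKM against 37.1 and 36.7 FPKM (log2 fold change 0.27, SE 0.04, limma adjusted p = 0.0047). All kept their call without any single library.

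Of 21 mitochondrial tRNA synthetases and amidotransferase subunits tested 6 were lower and 3 higher (median 0.07). The numbers lower and higher were 3 and 2 without si-SCR replicate 1 or 2, 6 and 5 without si-SCR replicate 3 (median 0.00), 2 and 1 without si-circVAMP3 replicate 1 (median 0.01), and 1 and 2 without si-circVAMP3 replicate 2. HARS2 rose most, from 6.41, 6.54 and 6.29 FPKM to 9.60 and 9.45 FPKM (log2 fold change 0.54, SE 0.05, limma adjusted p = 0.000948). AARS2 fell from 15.4, 15.0 and 14.4 FPKM to 11.7 and 11.5 FPKM (log2 fold change -0.35, SE 0.05, limma adjusted p = 0.00363). These genes charge the mitochondrial tRNAs for histidine and alanine, and both kept their call without any single library. PARS2 (log2 fold change 0.37), GARS1 (-0.30), YARS2 (0.28) and GATC (-0.26) were called too, and each lost its call without at least 1 library.

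In mitochondrial transcription and DNA maintenance 1 gene was lower and 2 were higher of 11 (median 0.11). TFAM, which packages the mitochondrial genome and starts its transcription, was at 14.6, 14.2 and 14.6 FPKM in si-SCR and 18.0 and 18.4 FPKM after knock-down (log2 fold change 0.32, SE 0.04, limma adjusted p = 0.00329). TFB2M, its partner at the promoter, had a log2 fold change of 0.33 (SE 0.04, limma adjusted p = 0.0034), and the DNA polymerase POLG one of -0.44 (SE 0.05, limma adjusted p = 0.0015). Of 9 nuclear regulators tested, 2 were called under either scaling alternative or without si-SCR replicate 3, and with all libraries and no further scaling PPRC1 was called (log2 fold change 0.17, SE 0.04, limma adjusted p = 0.0296; up to 0.162 without a library). NRF1 (-0.12), GABPA (0.03) and YY1 (0.05), whose letters were searched in the promoters, were not called. Of the 8 muscle and ARMS markers 4 were lower (6 without si-SCR replicate 3 and 2 without si-circVAMP3 replicate 2) and none higher, namely MYOG (log2 fold change -0.76, SE 0.08, limma adjusted p = 0.00149), CHRNG (-0.59), CHRND (-0.31) and FOXO1 (-0.26). MYOG and CHRNG kept their call whichever library was left out, CHRND lost it without si-circVAMP3 replicate 2 (adjusted p = 0.0735) and FOXO1 without si-SCR replicate 2 or either si-circVAMP3 library (up to 0.147).

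Cytosolic ribosomal proteins and the nuclear subunits of the respiratory chain are the gene groups closest in kind to the members. Of the 77 members 10 were lower and 15 higher, with a median log2 fold change of 0.04, which was 0.05 after median centring, 0.04 after quantile normalization and 0.02 without si-SCR replicate 1. Of 84 cytosolic ribosomal proteins tested 2 were lower and 65 higher, with a median of 0.25, or 0.15 with 45 higher after quantile normalization. The number higher was 49 without si-SCR replicate 1, 44 without si-SCR replicate 2, 30 without si-circVAMP3 replicate 1 and 20 without si-circVAMP3 replicate 2, with medians between 0.23 and 0.27. Of 80 subunits of the respiratory chain and ATP synthase 9 were lower and 8 higher, with a median of 0.00. That median was 0.03 without si-circVAMP3 replicate 1 and -0.03 without si-circVAMP3 replicate 2. After quantile normalization 12 of these subunits were lower and 5 higher (median -0.03), and after median centring 5 were lower and 8 higher. The numbers lower and higher of these were 3 and 4 without si-SCR replicate 1, 5 and 4 without si-SCR replicate 2, 7 and 15 without si-SCR replicate 3, 2 and 2 without si-circVAMP3 replicate 1, and 2 and 0 without si-circVAMP3 replicate 2. With all libraries 13% of the mitochondrial ribosomal proteins were lower and 19.5% higher, beside 16.7% and 15.8% of all genes. They thus had calls in both directions, as genes in general did, whereas most cytosolic ribosomal proteins were called higher in that fit. A difference between these groups was not tested.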

How the data were processed

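Poly-A+ RNA was sequenced in 3 si-SCR and 2 si-circVAMP3 libraries of RH4 cells. According to the submitters' notes and methods, the authors used bcl2fastq 2.20.0.422, Trimmomatic, STAR 2.5.2b on GRCh38 with Ensembl 99, and strand-aware htseq-count (HTSeq), dropped genes with a low CPM, and deposited FPKM computed with edgeR. Whether these used scaled library sizes is not given in the sources used here. FPKM times GENCODE 44 exon length gave whole fragments (within 0.01) for about 69.7% of genes, at depths of 26672263, 24991642 and 24946721 fragments in si-SCR and 18533740 and 28798388 in si-circVAMP3.

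Here log2(FPKM + 0.5) of 11094 genes with a mean of at least 1 FPKM was fitted with limma 3.58.1 (trended empirical Bayes, R 4.3.3), two-sided, with Benjamini-Hochberg adjustment over all genes and calls at an adjusted p under 0.05. The code was tested on simulated data. Further work used Python 3.11.15 and pandas 2.3.3. Alternatives covered the pseudocount, filter, scaling, variance model, call rule, replicate block, each library left out and, added after seeing the data, voom weights on recovered fragments.

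Named members are all those called, or the 24 of largest absolute log2 fold change where more were, plus the 5 of highest and 3 of lowest mean FPKM, and of other lists all called genes, or the 6 of largest change. MRPL12, MRPL41, MRPS11, MRPS25, NRF1, GABPA and YY1 were named after their values were seen. Members and lists were chosen with earlier results of these data known. With 3 and 2 libraries of a single line, p-values measure the spread among these cultures. Pseudogenes named after 35 members exist (7 called lower and 7 called higher), and fragments shared with such copies or with overlapping genes make these levels uncertain, as in 8 members with at least 20% of their exons overlapped on the same strand, MRPL33 and MRPS28 among the called.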

Additional observations from a re-analysis of the deposited data

How the results depend on the processing

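The 3606 calls among all genes, and the 10 lower and 15 higher members, differed by less than 1.5 times under other pseudocounts (0.1 and 1), no filter, either scaling, robust variance and, added after seeing the data, voom weights on recovered fragments. Without the variance trend 6 members were lower. With an added fold limit of 0.58, 1 member was lower, 0 were higher and 420 genes of all kinds were called, since that limit removes small changes. At an unadjusted p under 0.05, without that limit, 35 members passed in limma. The share of all genes at that threshold is not given here, so this count is not read as a result about the members.

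With a library left out, between 2 and 10 members were lower, between 1 and 18 were higher, and between 1250 and 3939 genes were called. Where si-circVAMP3 was left with 1 library, that library was assumed to vary like the others. All 25 called members kept their direction under the 14 alternatives other than the fold limit, and MRPL37, MRPL35 and MRPS26 kept their call under these as well. With the fold limit, which MRPL35 and MRPS26 do not reach, MRPL37 was called. The median log2 fold change lay between 0.02 and 0.06 for the large subunit and between 0.01 and 0.06 for the small subunit.

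MRPS24, at a low level, was reversed at -0.18 with the replicate block, and without a library lay between -0.18 (si-SCR replicate 3) and 0.49 (si-SCR replicate 1), with -0.14 without si-circVAMP3 replicate 2, and the cause was not tested. With the replicate number as a block, 8 members were lower, 11 were higher and 3324 genes were called, and MRPL24, MRPL39, MRPL52, MRPS6, MRPS10, MRPS22 and MRPS28 lost their call. Same-numbered libraries did not deviate together (correlation -0.17 for number 1 and -0.04 for number 2, over 11094 genes), so the numbers were not taken as pairs. MRPS24 had 57 fragments in its lowest library. Over the 63 members with whole fragments in every library, the median of the lowest library was 1140.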
